A study of Mus musculus with 2 samples.

Results

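The ectodysplasin receptor Edar, its adaptor Edaradd, the related receptor Tnfrsf19, the signal transducer Traf6, the NF-kB subunit genes Nfkb1, Nfkb2, Rela and Relb, and the feedback inhibitors Nfkbia and Tnfaip3 were followed in cultured dental epithelial stem cells with and without Med1. They were taken by symbol from the annotation of the array's probes. Of these 10 genes, 9 had probes (14 of the 25697 on the array, 9 of 16593 genes). Nfkb1 is not analysed here. The Med1 knockout cells were Med1 fl/fl with Krt14 driven Cre, so that recombination was limited to keratin 14-expressing epithelium. The control cells were Med1 fl/fl littermates without a listed Cre. Both came from C57/BL6 mice aged 3 months, 3 mice per genotype, and grew for 7 days without passage from labial cervical loop tissue in medium with EGF and FGF. There was 1 array per genotype, and whether the RNA of the 3 mice was pooled is not stated outright. Every value is therefore a single measurement with no replicate error and no test, and the number of arrays limits the precision.

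Ectodysplasin is a TNF-family ligand that ectoderm uses to build teeth, hair and sweat glands, and mutations of the ligand, Edar or Edaradd give ectodermal dysplasia in mice and humans. Edar binds Edaradd through a death domain, and the complex engages Traf6 and the IkB kinase. The kinase marks IkB proteins for destruction, and the freed NF-kB dimers enter the nucleus. There they switch on, among many targets, their own inhibitors: Nfkbia encodes IkB-alpha, which returns the dimers to the cytoplasm, and Tnfaip3 encodes A20, a ubiquitin-editing enzyme that silences the upstream complex. Levels of these 2 genes are commonly read as a record of NF-kB activity.

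Letters that match the site bound by NF-kB were looked for at the start sites of these genes. RefSeq promoter windows (mouse build GRCm38.p6, 250 bases before to 50 after each annotated start) matched 8 of the genes, with 12 windows in all. The windows below are shown because they hold such matches (Nfkbia, Tnfaip3, Nfkb2) or belong to the receptor that was lower in the knockout (Edar). Capitals mark matches, on either strand, to the kappaB consensus, the 10-base site bound by NF-kB dimers. The coordinates are chr12:55492598-55492897 (minus strand) for Nfkbia, chr10:19015361-19015660 (minus strand) for Tnfaip3, chr19:46304487-46304786 (plus strand) for Nfkb2 and chr10:58675647-58675946 (minus strand) for Edar.
Nfkbia: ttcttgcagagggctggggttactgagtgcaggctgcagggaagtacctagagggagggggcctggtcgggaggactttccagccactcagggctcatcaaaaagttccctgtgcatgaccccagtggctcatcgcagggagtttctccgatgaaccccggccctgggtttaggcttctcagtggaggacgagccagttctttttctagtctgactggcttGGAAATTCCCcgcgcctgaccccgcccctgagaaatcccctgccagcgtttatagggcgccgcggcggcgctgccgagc
Tnfaip3: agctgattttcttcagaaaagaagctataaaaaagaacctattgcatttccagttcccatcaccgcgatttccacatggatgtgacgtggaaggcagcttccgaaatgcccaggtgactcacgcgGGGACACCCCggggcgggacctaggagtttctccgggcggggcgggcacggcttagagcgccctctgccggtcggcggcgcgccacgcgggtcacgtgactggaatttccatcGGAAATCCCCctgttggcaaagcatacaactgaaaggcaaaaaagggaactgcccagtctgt
Nfkb2: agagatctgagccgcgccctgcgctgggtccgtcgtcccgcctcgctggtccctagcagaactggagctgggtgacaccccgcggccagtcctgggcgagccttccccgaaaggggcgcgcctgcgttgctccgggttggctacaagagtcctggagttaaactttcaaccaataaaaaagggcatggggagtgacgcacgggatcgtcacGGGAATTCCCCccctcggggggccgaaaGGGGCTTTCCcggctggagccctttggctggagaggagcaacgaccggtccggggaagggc
Edar: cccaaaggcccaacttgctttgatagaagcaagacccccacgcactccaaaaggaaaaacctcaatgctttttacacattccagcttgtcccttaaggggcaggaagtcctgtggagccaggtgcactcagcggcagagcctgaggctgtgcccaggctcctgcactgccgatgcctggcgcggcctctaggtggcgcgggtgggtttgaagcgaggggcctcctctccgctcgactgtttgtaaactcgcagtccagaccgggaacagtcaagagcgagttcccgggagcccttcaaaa

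The Nfkbia window holds 1 match, GGAAATTCCC, which begins 29 bases before the start. Tnfaip3 holds 2, GGGACACCCC at 125 bases and GGAAATCCCC at 12 bases before the start. Nfkb2 holds GGGAATTCCC at 39 bases, with an overlapping match 1 base on, and GGGGCTTTCC at 11 bases before the start. Its 2 downstream windows, which overlap, share GGGACTTTCC, which begins 10 bases after the start of the nearer one. That nearer window also holds GGAATGTCCC at 236 bases before its start. The windows of Edar, Edaradd, Tnfrsf19, Traf6 and Rela, and the second window of Tnfaip3, have none. Over all 32851 windows, 4.51% hold the consensus, against 5 of the 12 windows here. By gene it was 3 of 8, against 5.14% of 27025 genes. The looser pattern GGGNNNNNCC, searched on both strands and containing the consensus, is in 9 of the 12 windows and in 50.8% of all windows. These are matches of letters, not measured binding. The set was chosen to include feedback genes that NF-kB switches on, so these counts describe the choice and not the knockout.

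Signals were read as mean bead intensity, and each probe was set against the negative control beads of its own array. A probe counted as detected where its detection p-value was below 0.01. By this limit 10 of the 14 probes were detected on at least 1 array, 8 of them on both. They covered 8 genes, 6 of them on both arrays, and Edaradd was not detected on either.

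Differences are given as knockout minus control on the log2 scale after background correction and quantile normalization, for the brightest probe of a gene. Among the 8 detected genes, 1 exceeded 2-fold upward in the knockout and 1 downward. Over all 8217 detected genes, 8.35% were higher by 2-fold or more and 6.52% lower, so 1 gene each way among 8 cannot be set apart from the array as a whole. With lower bounds in place of measured differences for genes seen on 1 array, the members' counts were again 1 and 1, and the shares over all genes were 6.86% and 4.98%. The 2 were Tnfrsf19 and Edar, the receptors. The median difference of the 8 was -0.10, beside -0.06 over all detected genes.

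**Figure D1:**
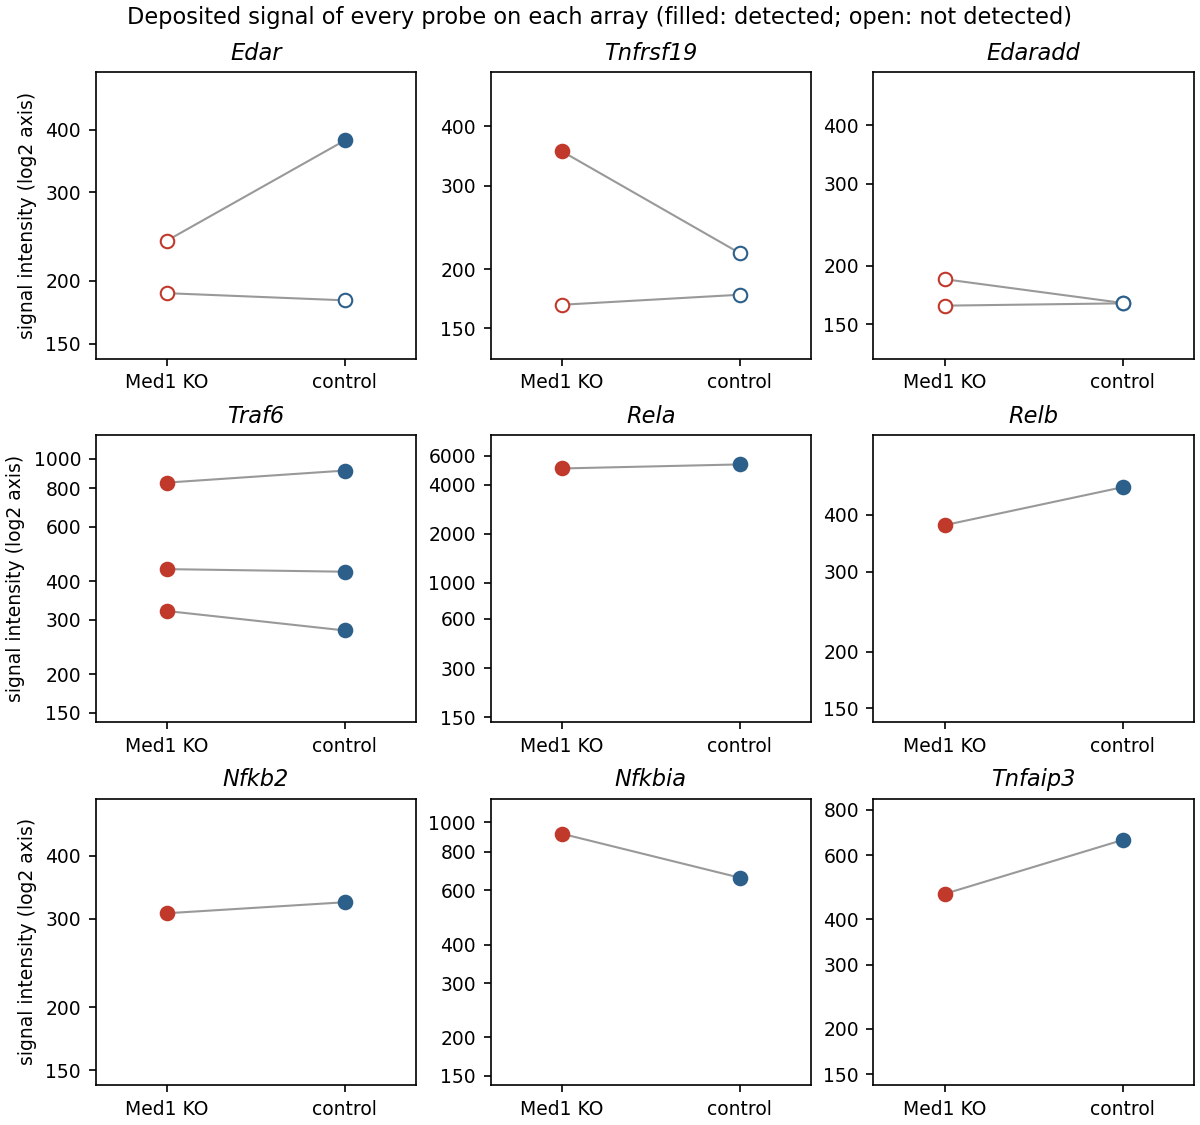
Deposited signal intensity (log2-spaced axis) of all 14 probes of the 9 genes, the Med1 knockout array left and the control array right, with a line joining the readings of 1 probe; filled points were detected and open points were not. The upper probe of Edar slopes up towards the control array and that of Tnfrsf19 down, the lower probe of each is an open point on both arrays, and the lines of Rela and Nfkb2 are nearly level.

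Edar read 240.5 on the knockout array and 380.5 on the control array by its brighter probe. Only the control array passed the detection limit. Its detection p-value on the knockout array was 0.01003, which just missed the limit of 0.01. After normalization the levels were 6.36 in the knockout and 7.75 in the control, a difference of -1.39. Because the knockout side was not detected, the fold is a bound set by the dimmest detected probe of that array (6.37). On these background-corrected values Edar was at least 2.61-fold lower in the knockout. Here and in what follows, "at least" is a bound for values after this correction only, which widens the differences of dim probes. A larger difference in either direction was seen in 8.59% of all detected genes.

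The second Edar probe read 189.1 in the knockout and 183.0 in the control and was detected on neither array. The lower value of Edar thus rests on 1 probe near background. Without background correction it was 1.55-fold lower, which is less than the bound and under 2-fold.

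Tnfrsf19, also called Troy, is a TNF receptor family member related to Edar and expressed in skin and hair follicle epithelium. It went the other way. Its brighter probe read 354.5 in the knockout and 216.2 in the control, and was detected on the knockout array only, with a control detection p-value of 0.03133. The normalized levels were 7.67 and 5.90 in knockout and control, and the difference was 1.77, exceeded in size by 5.56% of detected genes. After background correction Tnfrsf19 was at least 2.58-fold higher in the knockout.

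Here too the second probe was silent, at 168.2 in the knockout and 176.6 in the control. Without background correction Tnfrsf19 was 1.67-fold higher, again less than the bound and under 2-fold. The 2 receptors therefore differed in opposite directions, each by 1 probe of low signal.

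Edaradd, the death-domain adaptor through which Edar signals, was at background. Its probes read 187.3 and 164.4 on the knockout array, against 166.6 and 166.3 on the control array. The lowest of their 4 detection p-values was 0.2093, so no difference of Edaradd could be measured at this signal.

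Traf6, the ubiquitin ligase that joins TNF receptor and interleukin receptor signals to the kinases, was detected by all 3 of its probes on both arrays. The brightest read 835.5 in the knockout and 914.0 in the control, a difference of -0.08. The middle probe read 438.1 in the knockout and 429.7 in the control (0.14), and the dimmest 320.5 in the knockout and 277.2 in the control (0.49). The 3 probes were hybridised with the same RNA samples, and their differences lay on both sides of 0. Which transcripts of Traf6 each probe reads is not known here, nor for the silent second probes of Edar and Tnfrsf19. With the mean of the 3 in place of the brightest, the sign turned to 0.19.

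The precision that the arrays give is that between probes. In 1830 genes that had 2 or more probes detected by both arrays, the differences of the probes of a gene had a pooled standard deviation of 0.31, or 1.24-fold. It covers only the scatter of probes about the mean of their gene. An error shared by all probes of a gene is not in it, nor is any difference between cultures or mice. Of the 6 genes here that were detected on both arrays, 3 differed by less than this and 3 by more. Over all 8217 detected genes, 24.3% were higher and 31.4% lower by at least this spread, so 3 of 6 does not set these genes apart.

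The 3 genes below the between-probe spread were Traf6, Rela and Nfkb2. Rela encodes the main transactivating NF-kB subunit and read 5018.0 in the knockout and 5312.3 in the control, a difference of -0.12. Nfkb2 encodes the precursor of the subunit of the alternative pathway and read 307.6 in the knockout and 323.5 in the control, a difference of -0.07. Both were slightly lower in the knockout by an amount that most detected genes exceeded: 80.6% differed by more than Rela and 87.8% by more than Nfkb2.

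Relb, the partner of the processed Nfkb2 product in the alternative pathway, read 379.5 in the knockout and 459.9 in the control. Its difference of -0.35 was just beyond the between-probe spread. Without background correction it was -0.22, just inside the between-probe spread of 0.23 for such values. The corrected difference was the lowest of the 3 subunit genes and was exceeded in size by 51.0% of detected genes. All 3 subunit genes measured had negative differences, from -0.35 to -0.07. The median over all detected genes was negative too, at -0.06, so the shared sign does not set the subunits apart. Each subunit gene had a single probe.

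The 2 feedback inhibitors parted. Nfkbia read 917.1 in the knockout and 660.3 in the control, a difference of 0.68 or 1.60-fold higher. Tnfaip3 read 470.2 in the knockout and 661.5 in the control, a difference of -0.60 or 1.52-fold lower. Both were clearly detected on both arrays and both differences exceeded the between-probe spread of 0.31, with opposite signs.

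Neither reached 2-fold: 26.0% of detected genes differed by more than Nfkbia and 30.0% by more than Tnfaip3. Among the 1286 genes of mean level 9 to 10 on both arrays, the range that holds Nfkbia, the differences had a standard deviation of 0.76. Among the 1195 genes of level 8 to 9, which holds Tnfaip3, it was 0.86. Each of the 2 differences lies inside the spread of genes as bright as itself.

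**Figure D2:**
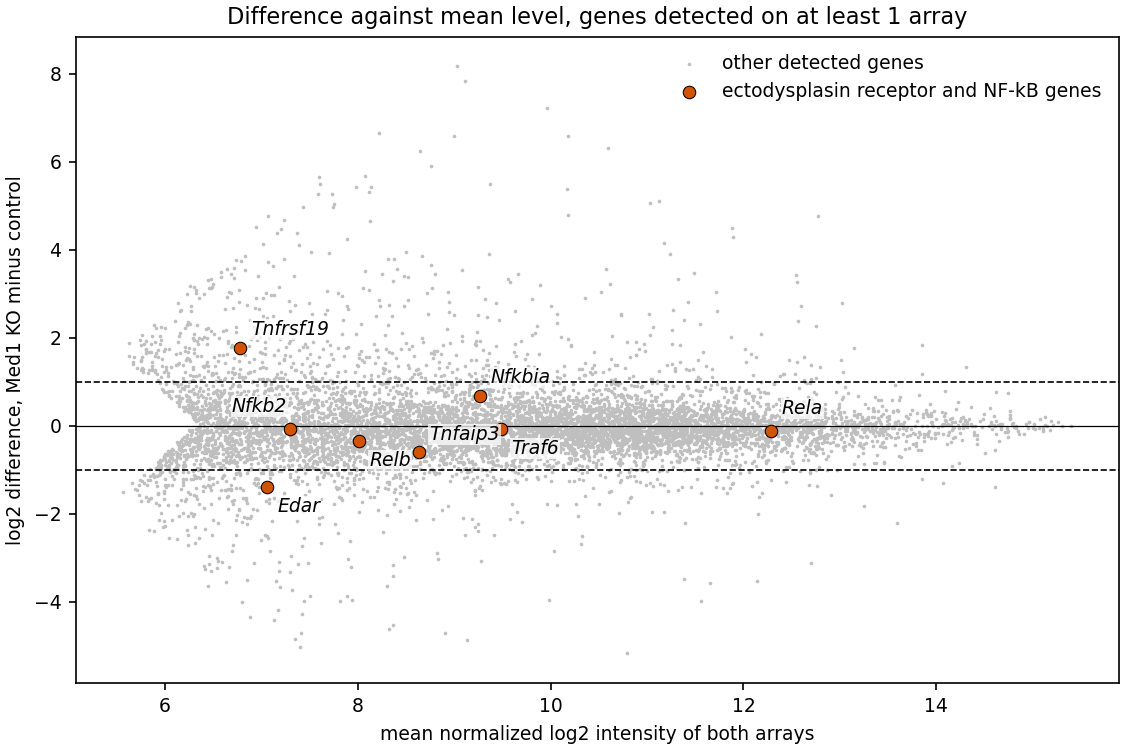
Log2 difference (Med1 knockout minus control) against the mean normalized log2 intensity of both arrays for the genes detected on at least 1 array, with the 8 detected genes of the pathway as large named points and 2-fold marked by dashed lines. Edar (-1.39) and Tnfrsf19 (1.77) lie outside the lines at low intensity, and the other 6 lie between them, with Rela farthest right at -0.12.

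**Figure D3:**
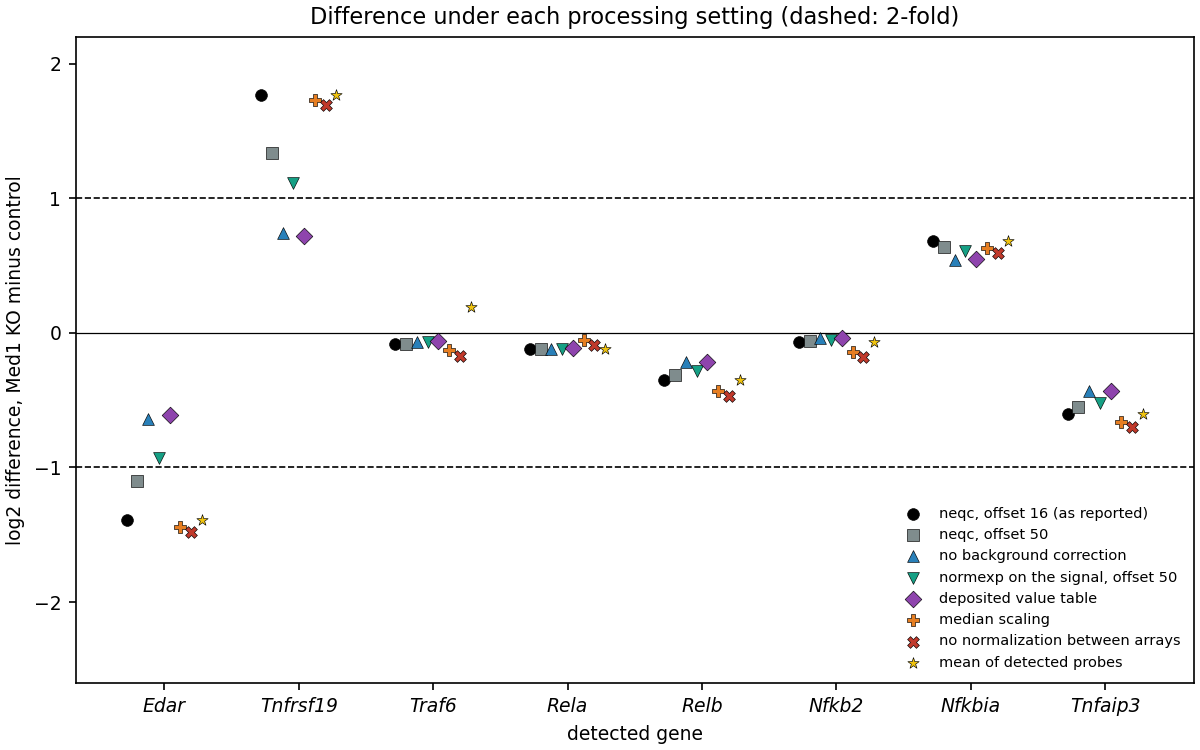
Log2 difference (Med1 knockout minus control) of the 8 detected genes under the reported processing and 7 other settings, 1 marker per setting, with 2-fold marked by dashed lines. Edar (-1.48 to -0.61) and Tnfrsf19 (0.72 to 1.77) keep their sign but cross the 2-fold lines, Nfkbia stays between 0.54 and 0.68, and Traf6 alone changes sign.

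The rest of the pathway was read from 7 lists of genes, 119 without the genes above, of which 64 were detected. Past 2-fold, 10 of the 64 lay higher and 5 lower in the knockout, beside 8.35% and 6.52% of all detected genes, and their median was 0.08. The ligand Eda itself was seen at the edge of detection. It read 254.1 in the knockout, where it was detected, and 202.5 in the control, where it was not, and was at least 1.23-fold higher. It was the only one detected of 17 TNF-family ligands. Eda2r, the receptor of a second ectodysplasin isoform, differed by 0.08, and Rel was not detected on either array.

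Of 24 other TNF receptors measured, 12 were detected. Past 2-fold, 4 of them lay higher in the knockout and 1 lower, beside 8.35% and 6.52% of all detected genes, and the median was 0.48. Without background correction the counts were 1 and 0, beside 341 and 207 of all 8217 detected genes, and the median was 0.38. Tnfrsf22, a decoy receptor for TRAIL in mice, read 3438.1 in the knockout and 1269.8 in the control, 3.05-fold higher, and a second probe gave 1.84 on the log2 scale. The death receptor Tnfrsf21 was 2.84-fold higher (1.82-fold uncorrected) and Tnfrsf4, a co-stimulatory receptor of T cells, 2.49-fold higher (1.51-fold uncorrected). The fourth was the death receptor Fas (2.12-fold, 1.90-fold uncorrected), named here after its value was seen. Tnfrsf11b, the secreted RANKL decoy osteoprotegerin, was 2.16-fold lower, at 710.6 in the knockout and 1407.9 in the control, and 1.91-fold lower uncorrected. The probes of Tnfrsf10b, named here after its values were seen, disagreed in sign. Its brightest probe differed by 0.53, and the 3 others detected ranged from -1.27 to -0.23.

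Between receptor and NF-kB, no gene of the TRAF and kinase list differed by 2-fold. Of 18 measured, 16 were detected on both arrays, and the median difference was -0.48. By the between-probe spread as a smaller yardstick, 9 of the 16 were lower and 3 higher, while 31.4% of all detected genes were lower and 24.3% higher by as much. The lowest were Ube2n (-0.64), the ubiquitin-conjugating partner of Traf6, the NF-kB-inducing kinase Map3k14 (-0.62), Tab1, an activator of the kinase Map3k7 (-0.57), and Traf4 (-0.57). The IkB kinase subunits Ikbkb and Ikbkg, added here after their values were seen, were both at -0.48. A second Ube2n probe gave -0.25, those of Tab1 gave -0.41 and -0.40, and the 3 others of Traf4 ranged from -0.74 to -0.11. Without background correction the median of the list was -0.25. By the same between-probe yardstick, 3 of the 12 other TNF receptors were lower and 8 higher. The counts were 2 and 5 of the 15 other IkB and feedback genes, and 6 and 7 of the 14 classical targets. Over all 64 detected genes of the 7 lists, 21 were lower and 27 higher.

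Among the other IkB and feedback genes, 15 of 17 were detected. Past 2-fold, 2 lay higher in the knockout and 0 lower, beside 8.35% and 6.52% of all detected genes. The median was 0.00. Without background correction the counts were 1 and 0, beside 341 and 207 of all 8217 detected genes. Tnfaip2, a TNF-induced gene, read 1542.1 in the knockout and 332.6 in the control, 8.27-fold higher (4.77-fold uncorrected), and its 2 other detected probes gave 2.78 and 3.06. Zc3h12a, the RNase regnase-1 that degrades inflammatory mRNAs, was 3.44-fold higher, but 1.92-fold uncorrected. Birc2, a ubiquitin ligase of the TNF receptor complex, differed by -0.74, with other probes at -0.44 and -0.20, and Nfkbib, encoding IkB-beta, by 0.59. Nfkbiz, an inducible nuclear IkB protein added here after its value was seen, differed by 0.00.

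The classical targets of NF-kB held the largest differences of the 7 lists and did not share a direction. Of 30 measured, 14 were detected by their brightest probe. Past 2-fold, 2 lay higher in the knockout and 3 lower, beside 8.35% and 6.52% of all detected genes. The median was 0.22. Without background correction the counts were 1 and 2, beside 341 and 207 of all 8217 detected genes. Csf3, named here after its value was seen, was not among the 14, but 1 other probe of it was detected and differed by -1.37. With the mean of the detected probes, 4 genes of the list were lower by 2-fold. The neutrophil chemokine Cxcl1 read 1456.1 in the knockout and 14683.3 in the control, 11.59-fold lower. Cxcl5, seen in the control alone, read 223.0 in the knockout and 1769.1 in the control and was at least 19.22-fold lower after background correction and 7.85-fold lower without it. Lcn2, an iron-scavenging secreted protein, was 2.81-fold lower (1.95-fold uncorrected). The adhesion molecule Icam1 read 1025.0 in the knockout and 416.7 in the control, 3.59-fold higher. The other was Vcam1, an adhesion molecule named here after its value was seen, detected on the knockout array only and at least 2.42-fold higher after background correction, but 1.64-fold without it.

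Of 13 measured genes that act downstream of ectodysplasin in embryonic ectoderm, 8 were not detected, Shh, Dkk4 and Fgf20 among them. Of the 5 detected, Bmp4 was 2.71-fold higher (894.1 in the knockout and 446.4 in the control). The activin antagonist Fst and the Wnt ligand Wnt10a differed by 0.82 and 0.78, and the BMP antagonist Sostdc1, added here after its value was seen, by -0.05. Wnt10b was seen in the control alone, and was at least 1.69-fold lower in the knockout (1.48-fold uncorrected).

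**Figure D4:**
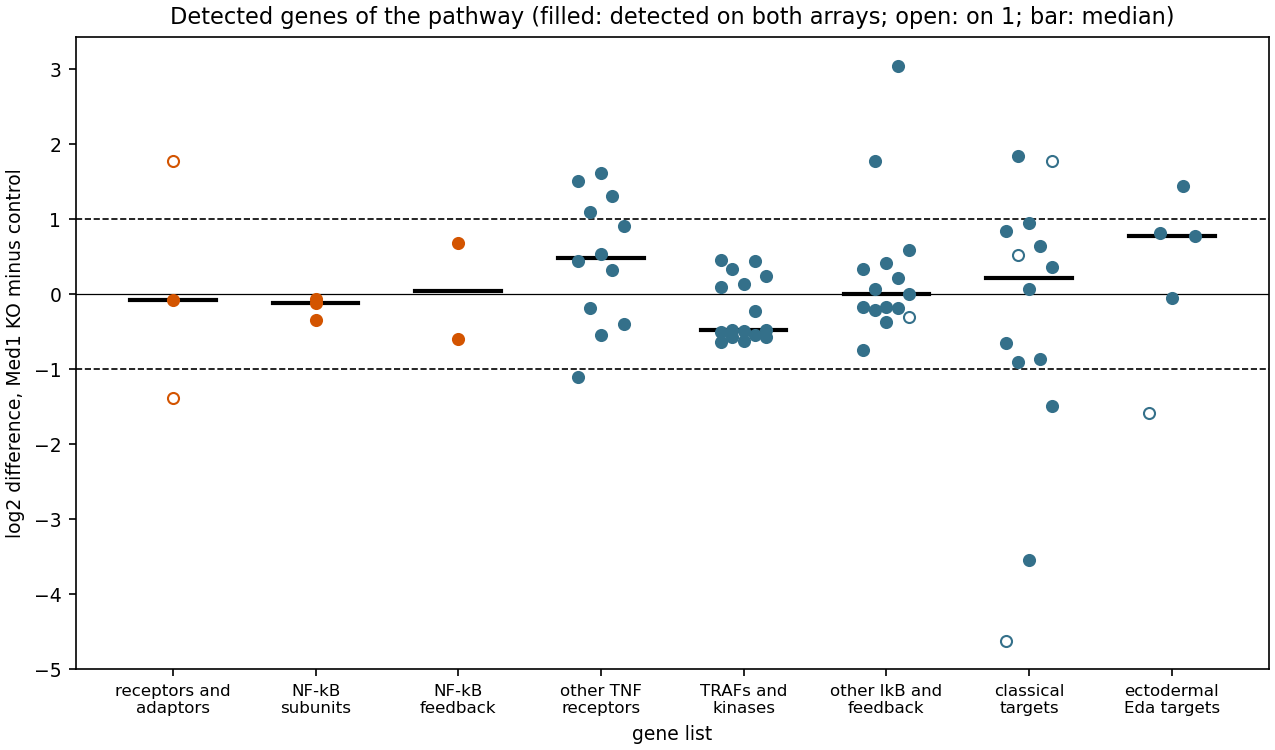
Log2 difference (Med1 knockout minus control) of each detected gene by list, with the genes of the ectodysplasin receptor and NF-kB set in orange and the other pathway lists in blue; filled points were detected on both arrays, open points on 1, bars are list medians and dashed lines mark 2-fold. The NF-kB subunits and the TRAF and kinase list stay inside the 2-fold lines, while the classical targets spread from -4.62 (Cxcl5) to 1.84 (Icam1).

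The kappaB consensus was in at least 1 promoter window of 10 of 23 classical target genes and 7 of 16 other IkB and feedback genes, against 5.14% of 27025 genes in the promoter table. It was in 4 of 21 TRAF and kinase genes and 2 of 20 other TNF receptor genes. Of the ectodermal genes downstream of ectodysplasin, 4 of 7 held it. So did 1 of 13 TNF-family ligand genes and 1 of the 3 genes Eda, Eda2r and Rel. The first 2 lists hold genes long known as NF-kB targets, so these counts describe the lists and not the knockout.

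As for the samples themselves, the arrays had 42.6% and 43.1% of probes detected (knockout and control). Med1 read 411.8 in the knockout and 913.5 in the control by its brightest probe, 2.81-fold lower, and its other detected probe differed by -0.28. How its probes lie relative to the deleted exons is not known here, and a probe outside those exons does not check the genotype. Keratinocyte and dental epithelial markers were detected on both arrays for all 10 measured genes, and their median difference was -0.11. Krt14 read 36803.4 in the knockout and 38349.1 in the control. Past 2-fold, Perp lay higher (3.44-fold, 1.90-fold uncorrected) and Krt5 lower (2.33-fold, at 10163.5 in the knockout and 22153.9 in the control).

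Markers of other cell programmes differed between the arrays. Mesenchymal markers were detected for 11 of 17 genes on the knockout array and 4 on the control array, with summed signals of 12957 and 5698. Cornified epidermis markers were detected for 11 of 14 and 7, with summed signals of 74567 in the knockout and 5635 in the control. Of 14 immune markers, 2 were detected on each array, and the leukocyte marker Ptprc was detected on neither. Of 9 endothelial markers, 2 were detected in the knockout and 1 in the control, and Pecam1 and Cdh5 on neither. The X-inactivation transcript Xist read 3130.6 in the knockout and 168.2 in the control, and the Y-linked Eif2s3y 888.3 in the knockout and 2472.5 in the control. The mix of male and female mice, the position on the chip that both arrays shared, and the genotype cannot be told apart. The part of these shifts in the differences of Edar, Tnfrsf19, Nfkbia and Tnfaip3 was not tested, and in RNA of whole cultures fewer cells expressing a gene and less RNA per cell cannot be told apart.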

How the data were processed

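Per the file headers, the authors deposited 1 non-normalized table with a mean signal intensity and a detection p-value (a probe against the negative controls) for every probe of an Illumina bead array. The submitters' processing notes name GenomeStudio 2011.1. A second deposited table holds intensity values of the same probes on a linear scale whose columns share 1 distribution, by a method not given in the sources used here.

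All 25697 probes were processed with neqc (limma 3.58.1, R 4.3.3): normexp background correction, with the control mean and variance taken from the detection p-values, then offset 16, log2 and quantile normalization. The procedure was tested on simulated data, with changes placed only in probes of higher signal. The simulation therefore does not cover differences of dim probes such as that of Tnfrsf19. Of the probes, 23978 had 1 symbol, 0 several and 1719 none. Symbols were updated through gene identifiers, of which 23962 matched. A gene took its brightest probe, and whether the gene was detected was read from that probe. A gene detected (p-value under 0.01) on 1 array has a bound in place of a fold, taken against the dim value or, where that is smaller, the lowest detected value of the dim array (6.37 in the knockout, 6.30 in the control), which holds for values after this correction only.

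The genes named are all 10 chosen genes, Med1 and, from each pathway list, up to 4 detected genes with the largest absolute difference. The genes and lists were chosen with earlier results of these data known. No gene was sought for a similar pattern, since 2 arrays give only a sign. The kappaB consensus was searched in RefSeq promoter windows.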

Additional observations from a re-analysis of the deposited data

How the results depend on the processing

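No paired analysis was possible because there is 1 array per genotype. The count of genes of the ectodysplasin receptor and NF-kB set at least 2-fold different, 1 higher and 1 lower, became 0 and 0 without background correction, with the deposited value table, and when detection on both arrays was required. It became 1 and 0 by normexp on the signal alone with offset 50 and at a 3-fold threshold, and 2 and 2 at 1.5-fold. For the other pathway genes, 10 higher and 5 lower became 4 and 2 without background correction and with the deposited value table, 8 and 3 with detection on both arrays, 17 and 11 at 1.5-fold, and 5 and 3 at 3-fold. Over all 8217 detected genes, 686 higher and 536 lower became 341 and 207 without background correction. The deposited value table gave 344 and 211, and normexp on the signal alone with offset 50 gave 494 and 325. At 1.5-fold the counts were 1203 and 1345, and at 3-fold 365 and 204. Of the 7272 genes detected on both arrays, 402 lay higher and 299 lower. The median difference of the 8 detected genes ranged from -0.17 without normalization between arrays to -0.09. Lower bounds in place of differences, an alternative added after the data were seen, gave 1 and 1, and 9 and 4. Of the 8 detected genes, Traf6 alone changed sign, in 1 of 7 settings (0.19 with the mean of its probes). Dim probes limit what can be said: Edar and Tnfrsf19 lay near background on 1 array each, and background correction widens such differences.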
